A study of Mus musculus with 9 samples.

Results

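The 7 genes described here encode the teneurins *Tenm1*, *Tenm2*, *Tenm3* and *Tenm4* and the latrophilins *Adgrl1*, *Adgrl2* and *Adgrl3*. They were taken by symbol from 15820 entries that carry a symbol, of 22013 entries in all, and each of the 7 had 1 entry. The set was selected because the values of *Tenm3* and *Tenm2* switch between high and low levels among libraries, so the values of these 2 genes are given as a description with no test.

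Teneurins are large single-pass transmembrane proteins whose extracellular part binds, across the gap between cells, the extracellular part of latrophilins. Latrophilins are adhesion G protein-coupled receptors that also bind FLRT proteins, and both families are best known from neurons, where they act in axon guidance, target recognition and synapse assembly. Teneurins also bind each other, and *Tenm3* is known for its part in wiring the visual pathway and in eye development.

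RNA was sequenced from mouse lenses at embryonic day E16.5 in 9 libraries, 3 for each of 3 genotypes, with RNA of 8 lenses pooled in each library. Control lenses were *Mafg*+/-:*Mafk*+/-, so that they too carried 1 knockout allele of each gene and no wild-type lens was in the series. Compound KO lenses were *Mafg*-/-:*Mafk*+/- and double KO lenses were *Mafg*-/-:*Mafk*-/-, all from germline knockout mice, in which the alleles are absent from every tissue. *Mafg* and *Mafk* encode small Maf proteins, transcription factors that bind DNA as partners of other factors, and the comparisons ask which transcripts of the lens depend on them. Values are CPM (read counts scaled to the size of the library) as normalized by the authors, and the replicates of a genotype are numbered 1 to 3 below in the order of the labels.

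*Mafg* had 112.9, 120.7 and 134.5 CPM in control, 10.1, 21.0 and 24.1 in compound KO and 24.6, 21.2 and 26.2 in double KO libraries, so the genotypes that lack it did not overlap with control. *Mafk* had 5.2, 6.3 and 5.6 CPM in control, 4.3, 5.3 and 4.8 in compound KO and 0.6, 0.0 and 0.3 in double KO libraries. The deposited totals lay between 728036 and 1131184 CPM, and the number of reads behind them is unknown. The sum of 16 lens markers lay between 80575 and 132071 CPM in 8 libraries. In compound KO replicate 1 that sum was 40473 CPM, and markers of neighbouring tissues were at their highest for 15 of 15 genes of neural retina and neurons, 8 of 10 of periocular mesenchyme, 5 of 6 of retinal pigment epithelium, 8 of 9 of skeletal muscle and 4 of 4 of corneal and surface epithelium. The tests in which compound KO replicate 1 takes part are therefore given below also without it, and in such bulk samples fewer cells of a type and less RNA per cell cannot be told apart.

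The DNA upstream of *Tenm3* and *Tenm2* is shown first, since small Maf proteins bind DNA and these genes had the widest spread among libraries. In GENCODE M39 on GRCm39, the canonical *Tenm3* transcript starts at position 49127725 of chromosome 8 on the minus strand and the canonical *Tenm2* transcript at position 36834993 of chromosome 11 on the minus strand. Both starts lie inside the gene: 2 of 9 annotated *Tenm3* transcripts and 1 of 8 *Tenm2* transcripts span the 250 bases before the start. In these windows 32 bases of *Tenm3* and 75 bases of *Tenm2* are exonic in other transcripts, and the stretches below are the rest, intronic in the spanning transcripts, chr8:49127758-49127975 and chr11:36835069-36835243, both on the minus strand, 5′ to 3′. Capitals mark a TGACGTCA, a motif added to the search after the windows had been seen.
*Tenm3*: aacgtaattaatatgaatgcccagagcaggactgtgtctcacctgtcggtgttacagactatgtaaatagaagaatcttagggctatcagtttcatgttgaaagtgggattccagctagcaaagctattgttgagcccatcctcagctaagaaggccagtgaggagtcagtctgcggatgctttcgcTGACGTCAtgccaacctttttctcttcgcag
*Tenm2*: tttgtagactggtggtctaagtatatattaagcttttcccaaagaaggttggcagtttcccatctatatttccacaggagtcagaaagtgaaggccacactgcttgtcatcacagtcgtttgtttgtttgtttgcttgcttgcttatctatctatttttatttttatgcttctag
The match in the *Tenm3* window begins 63 bases before the canonical start, and 1.69% of the 250-base windows before the start of 21747 protein-coding genes hold this palindrome. The small Maf site TGACNNNGC, searched on both strands, had no match in the windows of the 7 genes and is present in 9.67% of all windows. The shorter Maf site TGCTGAC, which can overlap TGACNNNGC, had 1 match among the 7 genes, on the reverse strand at the far end of the *Adgrl3* window, 250 bases before the start, against 3.24% of all windows. The windows of *Tenm4* and *Adgrl2* also lie inside the gene, spanned by 7 of 16 and 7 of 69 annotated transcripts. In the *Adgrl2* window 149 bases are exonic in other transcripts. A match is only a match of letters, and no binding was measured here.

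*Tenm3* (chr8:48678708-49296986, minus strand) was nearly absent from double KO lenses and abundant in compound KO lenses, and control lenses were split. Its values were 191.6, 12.5 and 7.4 CPM in control replicates 1 to 3, 124.8, 205.5 and 158.4 CPM in compound KO replicates and 0.9, 0.8 and 1.1 CPM in double KO replicates. Control replicate 1 lay within the range of the compound KO libraries, and the other control libraries lay below all of these and above all double KO libraries. The means were 70.5 ± 104.9 (SD, n = 3), 162.9 ± 40.5 and 0.933 ± 0.153 CPM, and the SD of the control group exceeded its mean. On the log2(CPM + 1) scale, on which all fold changes below are given and which understates those of low values, the difference was -3.86 for double KO against control, -6.38 for double KO against compound KO and 2.52 for compound KO against control. Double KO did not overlap with either group, as for 15.8% of all genes tested against control and 15.6% against compound KO. Compound KO and control overlapped. Without control replicate 1, the differences from control were -2.46 for double KO and 3.91 for compound KO.

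*Tenm2* (chr11:35897483-37126791, minus strand) was high or nearly absent in a different set of libraries. It had 35.5, 27.6 and 32.0 CPM in control, 0.3, 2.8 and 1.2 CPM in compound KO and 0.1, 30.4 and 36.7 CPM in double KO libraries. Thus all control libraries and double KO replicates 2 and 3 were high, and all compound KO libraries and double KO replicate 1 were low, with no value between 2.8 and 27.6 CPM. The means were 31.7 ± 3.96, 1.43 ± 1.27 and 22.4 ± 19.6 CPM (SD, n = 3 each). On the log2(CPM + 1) scale the difference of compound KO from control was -3.88, without overlap, as for 23.9% of all genes tested. That of double KO was -1.58 from control and 2.30 from compound KO, with overlap in both. These values rested on double KO replicate 1, without which they were 0.081 and 3.96.

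The high and low states of both genes did not coincide. Control replicate 1 had both transcripts at high levels, control replicates 2 and 3 had high *Tenm2* and low *Tenm3*, the compound KO libraries had high *Tenm3* and low *Tenm2*, double KO replicates 2 and 3 had high *Tenm2* and almost no *Tenm3*, and double KO replicate 1 had both at no more than 0.9 CPM. Pearson's r between them was -0.311 over the 9 libraries on the log2 scale (-0.191 without compound KO replicate 1), as a description. *Tenm2* shares chromosome 11 with *Mafg*, which lies at 120515942 to 120524530. *Adgrl3* shares chromosome 5 with *Mafk*, which lies at 139776804 to 139788408. A contribution of strain-specific DNA around the knockout alleles was not tested.

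**Figure D1:**
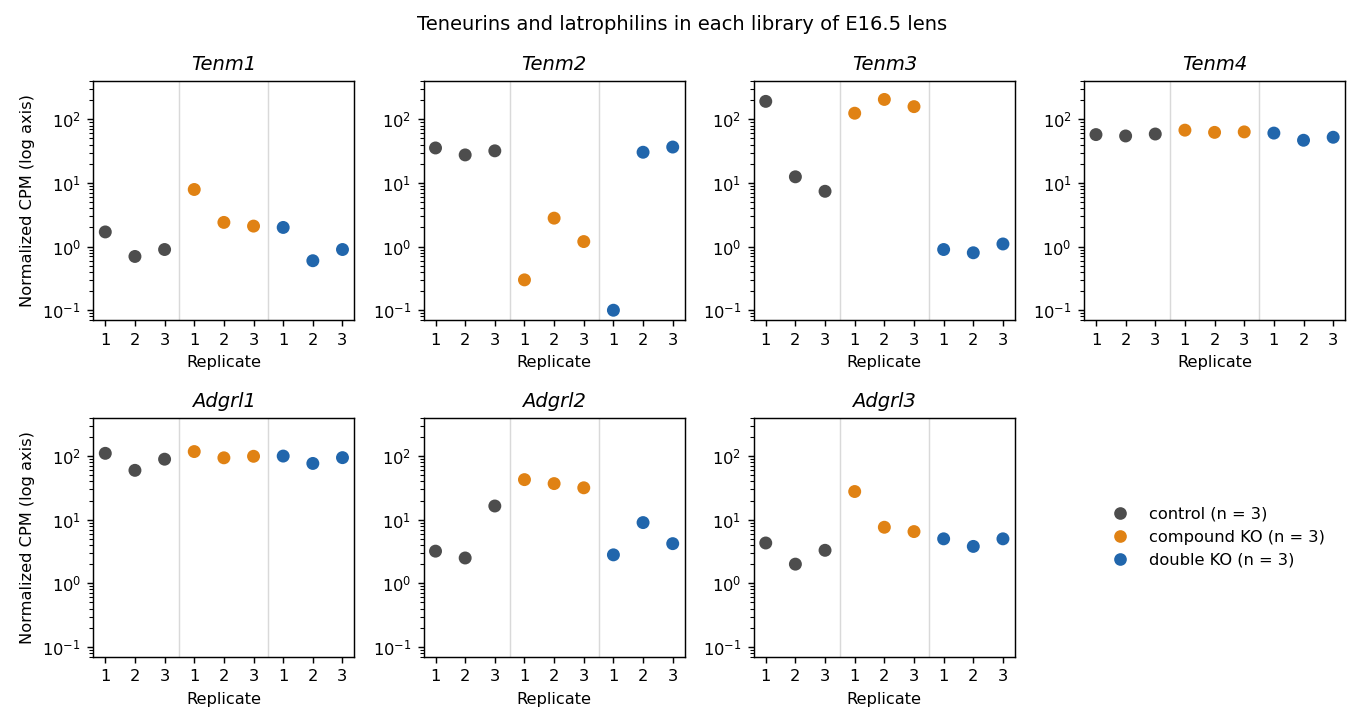
Normalized CPM (log axis) of the 7 genes in each library (x axis: replicate 1 to 3 of control, compound KO and double KO, by colour), 1 point per library. *Tenm3* spans 0.8 to 205.5 CPM and *Tenm2* 0.1 to 36.7 CPM with different libraries at the top, whereas *Tenm4* stays between 46.9 and 67.6 CPM.

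*Tenm4* and *Tenm1* behaved differently from the pair above. *Tenm4* (chr7:95820453-96560300, plus strand) was the steady teneurin, with 57.6, 54.8 and 58.8 CPM in control, 67.6, 62.4 and 63.5 in compound KO and 60.8, 46.9 and 52.3 in double KO libraries. All compound KO values lay above all others, by a small margin: the log2 fold change against control was 0.17 ± 0.07 (SE). *Tenm1* (chrX:41616743-42518044, minus strand) was the scarcest, with 1.7, 0.7 and 0.9 CPM in control, 7.9, 2.4 and 2.1 in compound KO and 2.0, 0.6 and 0.9 in double KO libraries. Again every compound KO library was above every other library, and replicate 1 was the highest of them.

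Since exonic length differs among the genes, levels were compared per kilobase of the canonical transcript (13821, 8298, 10970 and 13502 bases for *Tenm1* to *Tenm4*). On this scale *Tenm3* had 6.43, 14.8 and 0.0851 CPM per kb in control, compound KO and double KO, *Tenm2* had 3.82, 0.173 and 2.70, *Tenm4* had 4.23, 4.78 and 3.95, and *Tenm1* had 0.0796, 0.299 and 0.0844 (group means). By the 1 entry that carries each symbol, the leading teneurin therefore differed among libraries. Whether entries without a symbol hold further parts of these genes was not tested. *Tenm3* made up 66.8% of the teneurin signal per kb in control replicate 1 and 67.0%, 78.5% and 74.3% in compound KO replicates 1 to 3, against 13.3% and 7.54% in control replicates 2 and 3 and at most 1.73% in double KO. *Tenm4* made up 94.96% in double KO replicate 1, where both switching genes were low. *Tenm4* and *Tenm2* were close to each other in the 4 other libraries, with 47.3% and 38.8% in control replicate 2 and 47.9% and 50.5% in double KO replicate 2. The order of *Tenm2*, *Tenm3* and *Tenm4* in control means is thus within the spread of the libraries, and only *Tenm1* was below the others in every control library.

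Among the receptors, *Adgrl2* differed most between genotypes. *Adgrl2* (chr3:148518957-148696229, minus strand) had 3.2, 2.5 and 16.4 CPM in control, 42.6, 36.9 and 31.7 CPM in compound KO and 2.8, 9.0 and 4.2 CPM in double KO libraries. The compound KO libraries were above all others, and control replicate 3 was the next. The means were 7.37 ± 7.83, 37.1 ± 5.45 and 5.33 ± 3.25 CPM (SD, n = 3 each).

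*Adgrl3* (chr5:81167344-81972980, plus strand) had 4.3, 2.0 and 3.3 CPM in control, 27.7, 7.6 and 6.5 CPM in compound KO and 5.0, 3.8 and 5.0 CPM in double KO libraries. The compound KO libraries again stood above all others, with replicate 1 far above the other 2. *Adgrl1* (chr8:84626588-84668583, plus strand) was the main latrophilin throughout, with 110.3, 59.6 and 89.2 CPM in control, 117.6, 93.8 and 99.1 in compound KO and 99.9, 76.5 and 94.4 in double KO libraries, and the 3 groups overlapped. Per kb of exonic length (8462, 9615 and 9089 bases), *Adgrl1* made up between 65.0% and 94.2% of the latrophilin signal in the 9 libraries. *Adgrl2* accounted for 20.7%, 24.4% and 21.0% in compound KO replicates 1 to 3, and for 2.30% to 13.5% elsewhere.

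All 7 genes passed the filter on low values in each comparison, *Tenm1* with less than 1 CPM in 4 of the 6 control and double KO libraries. None of the 5 genes open to a test (*Tenm1*, *Tenm4*, *Adgrl1*, *Adgrl2* and *Adgrl3*) passed limma in any comparison, with calls made where the adjusted p was no higher than 0.05 and the change reached 1.5-fold. In compound KO against control, no gene of the 14348 tested passed (0%), so the adjusted test separated nothing there. With the p left unadjusted and the same limits, 3 of the 5 were higher in compound KO (*Adgrl2*, *Adgrl3* and *Tenm1*), against 5.34% of all genes in either direction. The groups did not overlap for 4 of the 5, *Tenm4* in addition, all higher, against 23.9% of all genes. The log2 fold change was 2.57 ± 0.63 for *Adgrl2* (SE, 95% interval 1.02 to 4.13), 1.59 ± 0.56 for *Adgrl3* and 1.14 ± 0.46 for *Tenm1*, each with an adjusted p of 0.481 in limma. For *Adgrl1* it was 0.30 ± 0.24 with an interval of -0.29 to 0.88. The median of the 5 was 1.14, beside 0.02 over all genes tested.

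In double KO against compound KO, the same 4 genes did not overlap, all lower in double KO, against 15.6% of all genes. At the unadjusted threshold 1 of the 5 was lower, *Adgrl2*, against 3.06% of all genes, and the adjusted test called 2 of 14402 genes (0.0139%), none of them among the 5. The log2 fold change of *Adgrl2* was -2.70 ± 0.37 (SE, 95% interval -3.61 to -1.78, adjusted p = 0.329 in limma). That of *Adgrl3* was -1.14 ± 0.53, with an interval that included 0 (-2.46 to 0.18), and the median of the 5 was -1.12, beside -0.01 over all genes. This comparison and the one above share the compound KO libraries, so they are not independent.

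In double KO against control, the main contrast of the study, the 5 genes stood close to 0. None passed at the adjusted (0.361% of 14122 genes) or the unadjusted threshold (2.83%), and none had groups without overlap (15.8%). The log2 fold changes were 0.02 for *Tenm1* (95% interval -0.71 to 0.76), -0.10 for *Tenm4* (-0.35 to 0.15), 0.10 for *Adgrl1* (-0.50 to 0.69), -0.12 for *Adgrl2* (-1.89 to 1.64) and 0.45 for *Adgrl3* (-0.14 to 1.04). The interval was narrow for *Tenm4* and wide for *Adgrl2*, for which a difference of more than 3-fold in either direction lies within it. The labels do not say whether libraries came from separate litters, so these p-values measure the spread between these samples, and an exact permutation test of 3 against 3 cannot go below 0.1.

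**Figure D2:**
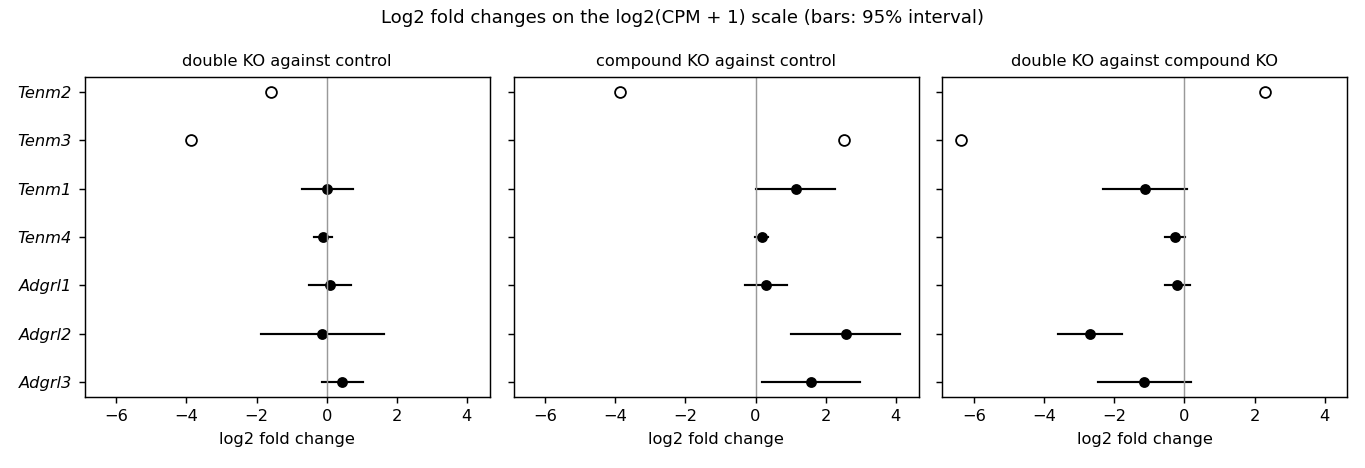
Log2 fold change on the log2(CPM + 1) scale (x axis) of each gene in the 3 comparisons (panels, n = 3 libraries per group). Filled points have 95% intervals from limma, open points are *Tenm2* and *Tenm3*, shown without an interval. *Adgrl2* stands at 2.57 in compound KO against control and at -2.70 in double KO against compound KO, and at -0.12 in double KO against control.

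Markers of other cell types moved with the 5 tested genes to different extents. The summed CPM of 15 markers of neural retina and neurons was 135.7, 44.6 and 133.4 in control, 1655.9, 397.8 and 154.4 in compound KO and 223.6, 54.1 and 114.5 in double KO libraries. Over the 9 libraries, which share this sum and the authors' scaling, Pearson's r of the log2 values with it was 0.955 for *Tenm1*, 0.938 for *Adgrl3*, 0.805 for *Tenm4*, 0.761 for *Adgrl1* and 0.645 for *Adgrl2*, and without compound KO replicate 1 it was 0.874, 0.827, 0.756, 0.734 and 0.485. Compound KO replicate 3 had about the neural marker sum of control replicates 1 and 3, and its *Adgrl2* was 31.7 CPM beside 3.2 and 16.4 CPM. Its *Tenm1* and *Adgrl3* were 2.1 and 6.5 CPM, beside 1.7 and 0.9 CPM and 4.3 and 3.3 CPM in these control libraries. *Tenm2* and *Tenm3* had r of -0.722 and 0.504 with the neural sum. *Tenm1* and *Adgrl3* also went with other lists, with r of 0.912 and 0.929 for retinal pigment epithelium and 0.897 and 0.935 for endothelium. For corneal and surface epithelium r was 0.895 and 0.931, for lens markers -0.913 and -0.916, and for erythroid cells -0.335 and -0.102. Without compound KO replicate 1, r for retinal pigment epithelium was 0.764 and 0.735, for endothelium 0.558 and 0.7 and for lens -0.643 and -0.581. For corneal and surface epithelium it was then 0.554 and 0.681. Periocular mesenchyme had r of 0.865 and 0.897 over the 9 libraries, and 0.354 and 0.427 without compound KO replicate 1. Of the endothelial sum of 144.8 CPM in compound KO replicate 1, *Kdr* gave 83.2 CPM. Among the 8 endothelial markers, 4 were highest and 2 were lowest in that library. Macrophage markers were low, and their sum was higher in every compound KO library than elsewhere, as were *Tenm1*, *Tenm4*, *Adgrl2* and *Adgrl3*. The sum of the 6 in the table, of 8, was 9.3 to 12.8 CPM in control, 16.6 to 28.7 in compound KO and 6.8 to 12.0 in double KO. None of the 6 was at 0 in any library. Pearson's r with this list was 0.926 for *Tenm4* and 0.766 for *Adgrl2*, or 0.908 and 0.677 without compound KO replicate 1, and 0.900, 0.816 and 0.612 for *Tenm1*, *Adgrl3* and *Adgrl1*. The part of neural tissue, macrophages or any other cell type in these differences was not tested.

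**Figure D3:**
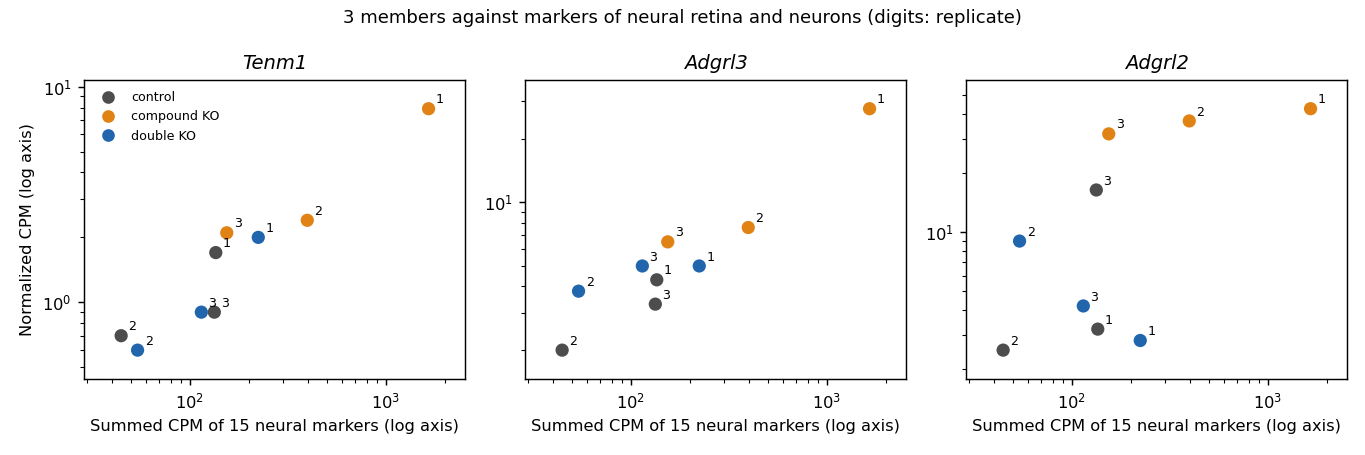
Normalized CPM of *Tenm1*, *Adgrl3* and *Adgrl2* (y axes, log) against the summed CPM of 15 neural markers (x axes, log), 1 point per library, digits for replicates and colours for genotypes. *Tenm1* and *Adgrl3* climb with the marker sum, and *Adgrl2* is at 31.7 to 42.6 CPM in compound KO, where the sums run from 154.4 to 1655.9.

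Without compound KO replicate 1, a choice made after seeing the data, the counts stayed at 3 of 5 (3.68% of all genes) at the unadjusted threshold and 4 of 5 without overlap (31.6%) against control. Against double KO they stayed at 1 (2.25%) and 4 (22.4%) of 5. The estimate for *Adgrl2* moved little, to 2.47 against control and -2.60 for double KO against compound KO. That of *Adgrl3* went from 1.59 to 0.97 and from -1.14 to -0.53, and that of *Tenm1* from 1.14 to 0.66 and from -1.12 to -0.64, so a large share of both rested on this library. *Tenm1* lies on the X chromosome, and *Xist*, transcribed from the inactive X of female cells, had 581.5, 122.9 and 531.0 CPM in control, 133.3, 295.1 and 419.8 in compound KO and 310.7, 399.7 and 286.6 in double KO libraries, with *Ddx3y*, a Y-linked gene, at 11.5 to 30.8 CPM, so transcripts of both were present in every pool, at unequal levels.

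How unusual the switching is was described by the within-group spread, the highest over the lowest value (each plus 1) in the group where this ratio is largest. It was 34.3 for *Tenm2*, in double KO, and 22.9 for *Tenm3*, in control. Of 9886 genes that reached 10 CPM in some library, 63 (0.637%) had a spread as wide as *Tenm2* and 131 (1.33%) as wide as *Tenm3*, and 655 (6.63%) had a spread of at least 8-fold. The next of the 7 genes was *Adgrl2* at 4.97, followed by *Adgrl3* at 3.83, *Tenm1* at 2.87, *Adgrl1* at 1.84 and *Tenm4* at 1.29. None of the 16 lens markers reached 8-fold. *Tenm2* and *Tenm3* were thus selected from a larger class of genes with such values, and the threshold was set after seeing the data.

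The entries came from an assembly of transcripts, and 6193 of them carry no symbol, so, in a step chosen after seeing the data, each gene was searched for an entry without a symbol whose addition made the sum of both most even over the 9 libraries. For *Tenm3*, among 104 entries of suitable size, this entry had 117.4, 270.5 and 296.4 CPM in control, 64.2, 50.1 and 129.3 in compound KO and 296.6, 266.7 and 280.3 in double KO libraries. It was low where *Tenm3* was high. The sums were 309.0, 283.0 and 303.8, then 189.0, 255.6 and 287.7, then 297.5, 267.5 and 281.4 CPM, and the coefficient of variation went from 115% for *Tenm3* alone to 13.2%, or 6.31% without compound KO replicate 1.

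For *Tenm2*, among 950 entries, the entry found had 0.8, 1.3 and 0.5 CPM in control, 33.3, 24.6 and 33.0 in compound KO and 38.7, 1.1 and 3.4 in double KO libraries. It took the opposite state in each of the 9 libraries, including double KO replicate 1. The sums ran from 27.4 to 40.1 CPM and the coefficient of variation went from 90.4% to 12.5%. *Adgrl1* showed a smaller pattern of the same form: in control replicate 2 and double KO replicate 2, where it was lowest, the entry found had 65.9 and 54.6 CPM, against 12.9 to 15.5 CPM in the other 7 libraries, and the coefficient of variation went from 18.5% to 9.05%. For *Adgrl2* the best sum still varied by 18.0%.

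Such a search picks the best of many entries, and it did as well for other genes. Over all 655 genes with a spread of at least 8-fold, the best sum had a median coefficient of variation of 12.5% (quartiles 10.03% and 15.2%), from a median of 105% alone, and 331 of them (50.5%) reached a value as low as that of *Tenm2* and 386 (58.9%) as that of *Tenm3*. The even sums are therefore not particular to these genes. Whether an entry found is another part of the same gene was not tested, since it carries no position or name.

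**Figure D4:**
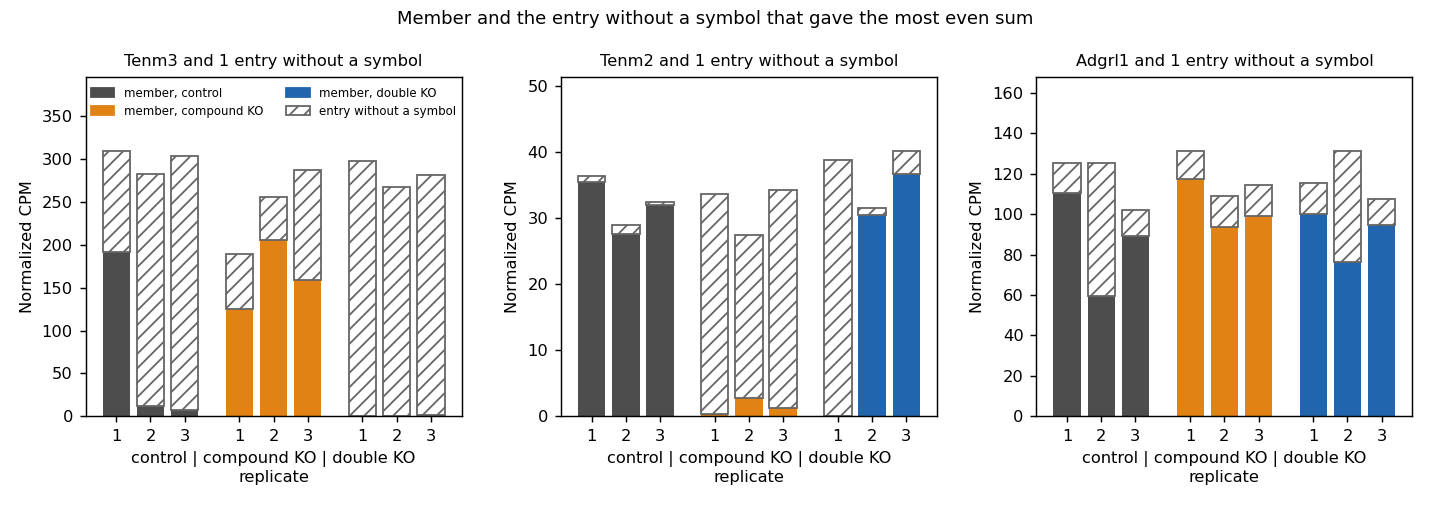
Normalized CPM of *Tenm3*, *Tenm2* and *Adgrl1* (solid bars, by genotype) and of the entry without a symbol that gave the most even sum (hatched, stacked on top), in replicates 1 to 3 of control, compound KO and double KO from left to right. The *Tenm2* sums lie between 27.4 and 40.1 CPM in all 9 libraries, although *Tenm2* alone ranges from 0.1 to 36.7 CPM.

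None of the genes in the table near *Tenm3* or *Tenm2* switched as these did. Within 500 kb of *Tenm3*, 39 genes are annotated and 4 were in the table. *Wwc2* had between 42.4 and 48.0 CPM in all libraries (r = 0.557 with *Tenm3* over 9 libraries on the log2 scale). *Dctd*, a deoxycytidylate deaminase gene, had 7.3 to 16.4 CPM (r = -0.249). Of the 2 long noncoding RNAs in the table, *Gm19744*, which overlaps the 5′ end of the *Tenm3* gene on the other strand, had 1.4 to 3.6 CPM (r = -0.403), and *E030037K01Rik* had 0.5 to 1.6 CPM. Of 23 genes annotated within 500 kb of *Tenm2*, 3 were in the table. *Slit3*, an axon guidance ligand, had between 104.1 and 134.6 CPM in 8 libraries and 46.2 CPM in compound KO replicate 1 (r = 0.475). *Pank3*, a pantothenate kinase gene, had r = -0.227 and *Wwc1* had r = -0.542, each with its highest value (76.0 and 20.5 CPM) in compound KO replicate 1.

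The genes most like *Tenm3* over the 9 libraries, among 8150 entries with a mean of at least 10 CPM, were *Med4* (r = 0.936), *Rnpc3* (0.935), *Mier2* (0.903), *Pot1a* (0.896) and *Get4* (0.880). Their own range was far smaller, from 22.6 to 25.4 CPM for *Med4* and from 13.1 to 31.5 CPM for *Get4*. Those least like it were *Glmn* (-0.911), *Eif4b* (-0.902) and *Eif2d* (-0.901). The genes most like *Tenm2* were *Vps35* (0.967), *Prdx5* (0.961), *Gm10925* (0.946), *Sh3glb1* (0.939) and *Stip1* (0.928), again over small ranges such as 110.0 to 132.4 CPM for *Vps35*. Those least like *Tenm2* were *Rmnd5b* (-0.975), *E2f4* (-0.964) and *Apoe* (-0.943). No gene on either list switched between a high and a nearly absent level.

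Of 12 genes listed here as extracellular partners of teneurins or latrophilins, 11 were in the table. Their levels ran from a mean of 179.9 CPM (*Flrt2*) to one of 0.789 CPM (*Nrxn3*). Whether each of them binds a teneurin or a latrophilin directly was not tested. *Flrt2*, a membrane protein that latrophilins bind, had 189.4, 206.3 and 175.8 CPM in control, 93.1, 164.3 and 201.1 in compound KO and 185.5, 221.3 and 182.5 in double KO libraries, lowest in compound KO replicate 1. *Dag1*, which encodes dystroglycan, had 187.5 to 193.3 CPM in control, 152.9 to 182.6 in compound KO and 166.1 to 174.1 in double KO libraries. Control thus did not overlap with either knockout, as for 23.9% of all genes with compound KO and 15.8% with double KO. The adjusted p of *Dag1* was 0.481 and 0.295 in limma. *Flrt3* ranged from 17.3 to 29.0 CPM over all libraries. *Cntn6*, a neuronal contactin, also switched: it had 0.8, 30.5 and 33.5 CPM in control, 20.1, 0.4 and 29.3 in compound KO and 1.4, 31.7 and 26.8 in double KO libraries. Its low libraries were control replicate 1, compound KO replicate 2 and double KO replicate 1, of which *Tenm2* was also low in the latter pair and *Tenm3* in double KO replicate 1.

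No extracellular partner passed the adjusted test in any comparison (limma, 10 tested in compound KO against control and 9 in each of the others). At the unadjusted threshold *Unc5c*, a netrin receptor gene, was higher in compound KO than in control and lower in double KO than in compound KO, against 5.34% and 3.06% of all genes, and no gene of the list passed it between double KO and control. *Unc5c* had 5.0, 4.9 and 7.1 CPM in control, 22.9, 14.4 and 14.8 in compound KO and 9.4, 4.9 and 7.8 in double KO libraries, so it too was highest in all compound KO libraries. Its log2 fold change in compound KO against control was 1.45 ± 0.24 (SE, adjusted p = 0.359 in limma) and 1.24 without compound KO replicate 1. It was named after its values had been seen. The list's median log2 fold change was 0.31 in compound KO against control (0.39 without compound KO replicate 1), -0.81 in double KO against compound KO (-0.45) and 0.00 in double KO against control, beside medians of 0.02, -0.01 and 0.01 over all genes.

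All 14 intracellular partners were in the table and tested, and none passed the adjusted test. *Gnas*, a G protein alpha subunit gene, had the highest level, with 624.3 to 943.2 CPM in control, 261.1 to 720.8 in compound KO and 650.7 to 812.9 in double KO libraries. *Rhoa* ranged from 122.9 to 147.1, *Gna12* from 87.4 to 112.5 and *Hint1* from 86.5 to 98.7 CPM over all libraries. At the unadjusted threshold 1 gene, *Gna11*, which encodes another G protein alpha subunit, was lower in compound KO than in control, which is 1 of 14 beside 5.34% of all genes, and none passed in the other comparisons. *Gna11* had 66.2, 63.1 and 61.5 CPM in control, 58.3, 19.9 and 21.1 in compound KO and 59.8, 59.3 and 59.3 in double KO libraries. Compound KO replicate 1 thus stayed near the other genotypes while replicates 2 and 3 were low. Without replicate 1 *Gna11* passed the adjusted test against control (log2 fold change -1.59, adjusted p = 0.0174 in limma), as 1 of 13 genes called among 14042. It also passed in double KO against compound KO, where 6 of 14112 genes were called. At the unadjusted threshold *Gna11* and *Mbd1* then passed in both comparisons, 2 of 14, beside 3.68% and 2.25% of all genes.

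Of 27 other adhesion G protein-coupled receptors, 16 were in the table and none of those tested (14, 13 and 12 in compound KO against control, double KO against compound KO and double KO against control) passed the adjusted test. *Adgrv1*, the largest receptor of the class, had 93.8 to 105.7 CPM in control, 107.4 to 126.0 in compound KO and 85.3 to 113.0 in double KO libraries, and *Adgra3* ranged from 34.9 to 65.4 CPM. *Celsr1*, a planar cell polarity receptor gene, ranged from 28.6 to 89.6 CPM. *Celsr2*, of the same family, had 2.0, 2.4 and 1.6 CPM in control, 132.7, 166.6 and 2.4 in compound KO and 5.7, 4.4 and 189.6 in double KO libraries. It was thus high in 3 libraries of both knockouts and at 1.6 to 5.7 CPM in the other 6. At the unadjusted threshold 3 of 14, *Adgrb1*, *Celsr2* and *Celsr3*, were higher in compound KO than in control, beside 5.34% of all genes, and 2 of 13, *Adgrb1* and *Celsr3*, were lower in double KO than in compound KO, beside 3.06%. None of 12 passed between double KO and control. *Adgrb1* and *Celsr3* were highest in compound KO replicate 1 (8.2 and 16.8 CPM). Without it 2 of 12 passed against control (*Adgrb1* and *Celsr3*), beside 3.68% of all genes, and none against double KO, beside 2.25%.

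Over these lists, a spread of at least 8-fold within a group was found for 3 of 9 extracellular partners that reached 10 CPM (*Unc5b*, *Nrxn2* and *Cntn6*), for 1 of 11 intracellular partners (*Arrb1*) and for 1 of 7 other adhesion receptors (*Celsr2*), beside 6.63% of all genes. *Nrxn2* was no longer among them without compound KO replicate 1.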

How the data were processed

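RNA of E16.5 mouse lenses was sequenced in 9 strand-specific paired-end libraries, 8 lenses each. The authors trimmed reads (Trimmomatic), aligned these (HISAT2, build mm39), assembled and counted transcripts (StringTie) and imported the counts in edgeR, which left out entries of low CPM. Cufflinks is also named per the labels, and versions are not given in the sources used here. The deposited unit is a normalized signal: each library's CPM was multiplied by a factor for its composition and given to 1 decimal, as read from the totals, so that no counting error can be given. The tests cover entries that have a symbol.

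Here, log2(CPM + 1) was tested with limma 3.58.1 (R 4.3.3; intensity trend, two-sided, Benjamini-Hochberg) in each pair of genotypes, for entries with at least 1 CPM in at least 2 of 6 libraries. The planned count model was not used because no counts are in the file. Same-numbered libraries correlated by -0.106 to 0.216 after removal of group means and were not paired. The genes, lists and rules were chosen with earlier results of these data known. Named genes are the 7, the 4 highest of each partner list, genes within 500 kb of *Tenm2* and *Tenm3*, the 5 most and 3 least like them, and the targeted genes; others were named after their values were seen. Alternatives were library total and upper quartile scaling, other filters, a pseudocount of 0.1, 1 fit of all libraries, a replicate block, summed entries, no fold threshold and each replicate left out. The test was tested on simulated data. Sequences and positions come from GENCODE M39 on GRCm39. Python 3.11.15 was used. Results of some listed genes are not reported here.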

Additional observations from a re-analysis of the deposited data

How the results depend on the processing

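No test of *Tenm1*, *Tenm4*, *Adgrl1*, *Adgrl2* or *Adgrl3* passed the adjusted threshold under any alternative that was run. The adjusted p of *Adgrl2* ranged from 0.136 to 0.762 in compound KO against control and from 0.132 to 0.773 in double KO against compound KO. In double KO against control, leaving out 1 replicate turned the sign of 4 genes. *Tenm2*, from -1.58, ranged from -2.47 to 0.081 and turned without double KO replicate 1. For 3 genes whose fold changes lay near 0, *Tenm1* ranged from -0.12 to 0.21, *Adgrl1* from -0.14 to 0.29 and *Adgrl2* from -0.55 to 0.60. *Tenm1* turned without control replicate 2 (-0.12) or 3 (-0.04), *Adgrl1* without control replicate 2 (-0.14), and *Adgrl2* without control replicate 3 (0.60) or double KO replicate 1 (0.18). Leaving out 1 replicate also moved 3 list counts from 0 to 1: *Gna11* passed in both comparisons with compound KO without compound KO replicate 1, and *Celsr2* passed in compound KO against control without compound KO replicate 3. The cause was not tested. A replicate block cannot move the fold changes of this balanced design. With it the adjusted p of *Adgrl2* in double KO against compound KO (-2.70) went from 0.329 to 0.605, and no call changed. The other 302 values and 177 list counts kept their direction and call. Requiring 1 CPM in every library left no value for *Tenm1*, and in double KO against control it also fell under the filter without control replicate 1 or double KO replicate 1. With 4-fold as the limit of a wide spread, chosen after seeing the data, *Adgrl2* joined *Tenm2* and *Tenm3* (14.2% of genes), and at 16-fold (2.35%) both remained. Depth is unknown, 3 libraries per genotype limit precision, and low values such as those of *Tenm1* carry only 1 decimal.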
